A study of Sus scrofa with 32 samples.

Results

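Here 9 genes of the complement system, C1R, C1S, C4A, C3, CFB, CFI, CD46, CD55 and CD59, were followed through the luminal epithelium (LE), the glandular epithelium (GE), the blood vessels (BV) and the stroma (S) of pig endometrium. They were chosen by pig gene symbol and matched to NCBI gene IDs. All 9 were found among the 30185 genes counted, and 8 of the 9 were in the filtered count table of every compartment. CFB was in no filtered table. The endometrium came from prepuberal gilts whose cycles were synchronized with eCG and then hCG. The 4 pregnant gilts were inseminated with semen, and the 4 cyclic gilts, labelled nonpregnant, received the supernatant of semen from the same boar. Tissue was taken on Day 14, in pregnant gilts from the hyperemic zones where embryos attach, and each compartment was cut from stained frozen sections by laser capture microdissection (LCM). RNA-seq libraries of 31 samples were analysed, 4 for each group and compartment except pregnant GE (n = 3), since PG41 was not analysed here. Libraries are called as in their labels, by a letter for the group (C for control, here cyclic, and P for pregnant), a letter for the compartment (L, G, B and S) and the gilt's number, so that CL40 and CG40 are LE and GE of the same cyclic gilt. Because pregnant tissue was taken at attachment sites, pregnancy and position in the uterus cannot be told apart.

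Complement is a cascade of plasma and tissue proteins that tag surfaces and recruit immune cells. In the classical pathway a recognition molecule, C1q, carries the serine proteases C1r and C1s. C1r activates C1s, and C1s then cleaves C4 and C2 to form an enzyme that cleaves C3, the component on which all activation routes meet. CFB supplies the protease of the alternative pathway, which amplifies C3 cleavage. Host cells are protected by regulators. CFI is a soluble protease that inactivates C3b and C4b, CD46 is its membrane cofactor, CD55 speeds the decay of the C3-cleaving enzymes and CD59 blocks the assembly of the membrane attack complex. In pregnancy these regulators are known for limiting complement activity at the surfaces where mother and conceptus meet.

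The sequences just around the annotated gene starts of C1R, C4A and C3, which were upregulated in GE, are shown because these genes moved together there. They were read from Sscrofa11.1 with the RefSeq annotation, 250 bases before the start and 50 from it on, on the strand of the gene. C1R lies on the plus strand of chromosome 5 (promoter window chr5:63643847-63644146). C4A is on the plus strand of chromosome 7 (chr7:24067769-24068068) and C3 on the plus strand of chromosome 2 (chr2:72431220-72431519). Capitals mark matches, on either strand, to 6 of the 7 motifs searched (GAAANNGAA, part of the IRF element; TTCNNNGAA, the GAS element; GGGNNTTTC, part of an NF-kB site; TTGCGCAA, a C/EBP site; CACGTG, an E-box; TATAAA, which is the TATA box); the seventh, GGTCA, the core of an estrogen response element, is left in lower case.
C1R: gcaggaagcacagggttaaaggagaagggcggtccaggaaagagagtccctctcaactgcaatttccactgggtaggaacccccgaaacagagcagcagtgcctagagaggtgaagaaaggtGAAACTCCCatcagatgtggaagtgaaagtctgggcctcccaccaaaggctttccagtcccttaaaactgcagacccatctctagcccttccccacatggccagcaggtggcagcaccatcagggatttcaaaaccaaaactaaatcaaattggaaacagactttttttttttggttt
C4A: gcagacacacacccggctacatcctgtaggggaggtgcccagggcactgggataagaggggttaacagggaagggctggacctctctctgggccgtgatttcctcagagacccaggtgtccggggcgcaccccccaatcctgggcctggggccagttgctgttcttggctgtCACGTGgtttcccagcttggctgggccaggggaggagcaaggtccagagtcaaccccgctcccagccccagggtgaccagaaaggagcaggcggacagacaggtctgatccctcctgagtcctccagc
C3: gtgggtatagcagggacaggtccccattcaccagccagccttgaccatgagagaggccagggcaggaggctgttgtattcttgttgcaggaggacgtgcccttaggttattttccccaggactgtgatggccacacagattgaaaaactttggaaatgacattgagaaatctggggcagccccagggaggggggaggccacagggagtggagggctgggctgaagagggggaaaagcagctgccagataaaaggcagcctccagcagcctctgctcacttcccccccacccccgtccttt
The C1R window held the NF-kB letters. An E-box began 78 bases before the start of C4A, and the GGTCA letters, on the other strand, 5 bases before it. The window of C3 held the GGTCA letters alone. Of 20656 promoter windows of this length, 4.61% held the NF-kB letters, 8.23% the IRF letters, 7.64% the E-box and 37.7% the GGTCA letters. The GAS element was in 7.35% of windows, the TATA box in 11.6% and the C/EBP site in 0.198%. No window of these 3 genes held the last 3 or the IRF letters. A match is a description of letters, and no binding was measured.

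The libraries held 2415216 to 7081556 counts each, with a median of 3624021, of which ribosomal RNA genes took 5.2% to 16.9%. FOXA2, a transcription factor of uterine glands, was at 68.1 to 102 CPM (counts scaled to the summed counts of the tested genes in a library, adjusted by TMM factors; for cell type markers on the scale of the joint fit) in GE and at no more than 7.89 CPM in LE. The summed level of 8 epithelial markers in BV was 2.61 to 46.6 CPM in cyclic and 155 to 290 CPM in pregnant gilts, and that of 8 smooth muscle markers in BV was 5420 to 18400 CPM in cyclic and 884 to 6870 CPM in pregnant gilts. In S the epithelial sum was 11.4 to 174 CPM in cyclic and 35.2 to 449 CPM in pregnant gilts, with 6 of 6 tested markers higher and 0 called. The smooth muscle sum in S was 427 to 1070 CPM in cyclic and 315 to 453 CPM in pregnant gilts. The part of these cell types in the values of the members in BV and S was not tested. RNA of fibroblast markers was present in LE and GE, and its level is given beside that of the members further on. In such bulk samples fewer cells of a type and less RNA per cell cannot be told apart.

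The comparison of pregnant with cyclic gilts asked where complement genes respond at the time of attachment. By edgeR's quasi-likelihood test, genes of LE were called upregulated or downregulated at a false discovery rate of 1%. The largest unadjusted p so called, 0.000328, served as the limit for GE, BV and S. Only this way of setting the threshold follows the study. The study itself tested with edgeR's robust GLM, which is given below as the robust likelihood ratio test and called more genes. In GE, 4 of the 8 tested members were upregulated, C1R, C1S, C4A and C3, against 0.512% of all 11905 genes tested that were upregulated there (0.748% in either direction). In LE, 1 of 8 was upregulated, C1S, against 2.02% of 12002 genes (3.32% in either direction). No member was called in BV (0 of 8, against 1.86% of 11096 genes, 1.3% upregulated) or in S (0 of 8, against 0.293% of 11935 genes, 0.184% upregulated). At an unadjusted p under 0.05, 2 of 8 members were higher in pregnant BV, against 14.4% of all genes, and 4 of 8 in pregnant S, against 7.49%, the closest to the threshold being C3 in S with an unadjusted p of 0.000587. DESeq2 called 3, 4, 2 and 1 members (LE, GE, BV, S), against 11.2%, 6.64%, 8.5% and 2.6% of all genes. It gave no adjusted p for C3 in LE (log2 fold change 2.87), which is counted here as not called. The robust likelihood ratio test of edgeR called 4, 5, 2 and 2, against 11.8%, 6.66%, 11% and 3.16%. In LE these 4 were C1R, C1S, C4A and C3, which the paper also lists as upregulated there. At a rate of 5% within each compartment the quasi-likelihood test called 4, 4, 0 and 0, against 10.7%, 1.86%, 8.63% and 0.0335%. No member was downregulated in any compartment by the quasi-likelihood test, while at an unadjusted p under 0.05 only CD59 in GE was lower (1 of 8, against 11.8% of all genes there), and the robust test called it. The median log2 fold change over the 8 members was 1.04 in LE and 1.23 in GE, 0.51 in BV and 0.78 in S, where the median over all genes was between -0.01 and 0.

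**Figure D1:**
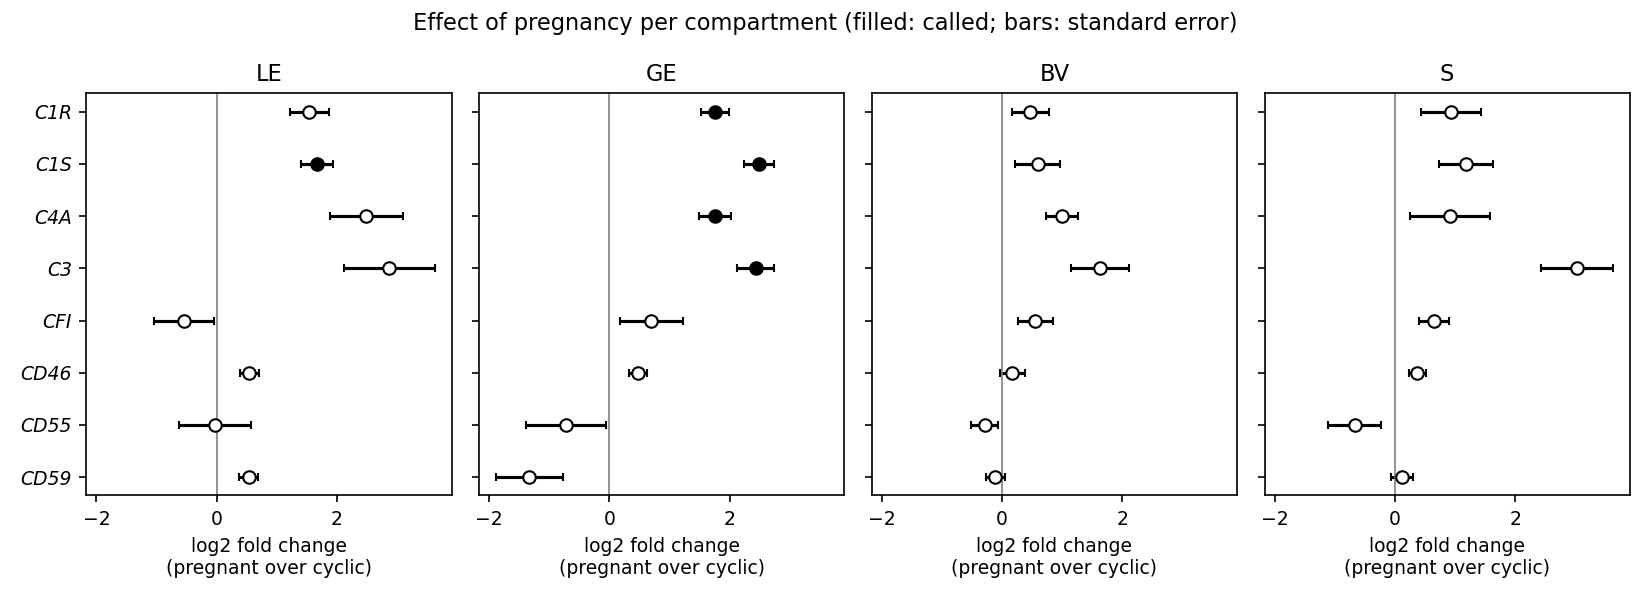
Log2 fold change of pregnant over cyclic gilts (x axis) for 8 complement genes (rows) in LE, GE, BV and S, with the standard error as bars and filled points for genes called by edgeR's quasi-likelihood test. C1R, C1S, C4A and C3 lie right of 0 in all 4 panels, with filled points for the 4 of them in GE and for C1S in LE.

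C1S, the protease that cleaves C4 and C2, was at 25.9, 54.6, 39.9 and 39.8 CPM in the cyclic GE libraries CG128, CG40, CG42 and CG78, and at 264, 190 and 217 CPM in the pregnant ones, PG139, PG39 and PG43. The lowest pregnant library was above the highest cyclic one by a wide margin. C1S rose 5.59-fold in GE (log2 fold change 2.48, SE 0.25, adjusted p = 0.0276 by edgeR's quasi-likelihood test). It was called in each of the 7 fits that left out 1 library, with adjusted p from 0.0118 to 0.0893 by the same test. In LE it was at 47.5, 47.6, 80.9 and 59.0 CPM in CL128, CL40, CL42 and CL78 and at 261, 198, 164 and 127 CPM in PL139, PL39, PL41 and PL43, again without overlap. Values of single libraries are given in this order throughout. C1S rose 3.19-fold in LE (log2 fold change 1.67, SE 0.27, adjusted p = 0.00631 by edgeR's quasi-likelihood test). The call in LE was close to the threshold, since it held in 1 of the 8 fits without 1 library. In those fits adjusted p by the same test ran from 0.00943 to 0.0239, while the log2 fold change stayed between 1.47 and 1.86. Fits without 1 library were called at a rate of 1% in LE and by the unadjusted p limit of 0.000328 in GE, BV and S. Counts of such fits are therefore not alike between LE and the other compartments.

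C1R, the partner that activates C1s, followed the same pattern at a lower level. In GE it was at 16.5, 31.9, 24.4 and 19.6 CPM in cyclic and at 70.3, 78.7 and 85.6 CPM in pregnant gilts. The groups did not overlap, and C1R rose 3.38-fold (log2 fold change 1.76, SE 0.23, adjusted p = 0.0296 by edgeR's quasi-likelihood test). The call was lost when CG42, CG78, PG39 or PG43 was left out, with a log2 fold change of 1.63 to 1.95 over all 7 such fits. In LE, C1R was at 20.6, 23.9, 47.2 and 29.5 CPM in cyclic and at 129, 88.2, 76.8 and 56.9 CPM in pregnant gilts. These groups did not overlap either, but the log2 fold change of 1.54 (SE 0.32, adjusted p = 0.0176 by edgeR's quasi-likelihood test) missed the threshold, which DESeq2 passed at an adjusted p of 0.000182.

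In BV and S both proteases were higher than in the epithelia, and the groups overlapped. C1S in BV was at 337, 401, 610 and 390 CPM in cyclic and 292, 752, 442 and 1120 CPM in pregnant gilts, with PB139 below every cyclic one. In S it was at 246, 468, 944 and 353 CPM in cyclic and 891, 1810, 606 and 1280 CPM in pregnant gilts, where the highest cyclic library, CS42, was above 2 pregnant ones. For C1S the log2 fold change was 0.59 in BV and 1.19 in S (SE 0.45, adjusted p = 0.283 by edgeR's quasi-likelihood test). That of C1R was 0.47 in BV and 0.93 in S, and none of these was called by that test. Of these, edgeR's robust likelihood ratio test called C1S in S (adjusted p = 0.0147).

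C4A encodes a form of C4, the substrate of C1s. In GE it was at 79.1, 174, 152 and 114 CPM in cyclic and at 471, 376 and 472 CPM in pregnant gilts. There was no overlap, and C4A rose 3.39-fold (log2 fold change 1.76, SE 0.27, adjusted p = 0.0394 by edgeR's quasi-likelihood test), although the call held in 2 of 7 fits without 1 library, those without CG128 or CG40. In LE it was at 19.5, 52.4, 20.3 and 111 CPM in cyclic and at 507, 160, 280 and 199 CPM in pregnant gilts. The groups were apart, but CL78 stood well above the other cyclic libraries, and the log2 fold change of 2.49 (SE 0.61, adjusted p = 0.0319 by edgeR's quasi-likelihood test) was not called. Without CL78 it was called, with a log2 fold change of 3.21 and an adjusted p of 0.0079. In BV, C4A was the only member without overlap, at 193 to 365 CPM in cyclic and 380 to 768 CPM in pregnant gilts. The log2 fold change was 1.0 (SE 0.27, adjusted p = 0.0514 by edgeR's quasi-likelihood test). DESeq2 called it there at an adjusted p of 0.00696, and edgeR's robust likelihood ratio test at 0.00274. In S the range was 210 to 1590 CPM in cyclic and 401 to 2270 CPM in pregnant gilts, and the log2 fold change of 0.92 was not called.

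C3, the central component, showed the largest log2 fold change of the members in LE, BV and S and the second largest in GE. In GE it was at 51.6, 127.6, 94.6 and 71.5 CPM in cyclic and at 509, 476 and 409 CPM in pregnant gilts. The 3 pregnant libraries were close together and far above the cyclic ones, and C3 rose 5.39-fold (log2 fold change 2.43, SE 0.30, adjusted p = 0.0282 by edgeR's quasi-likelihood test). C3 was called in 7 of 7 fits without 1 library, with adjusted p from 0.0156 to 0.092 by the same test. In LE it was at 32.7, 15, 6.01 and 50.8 CPM in cyclic and at 474, 98.2, 90.6 and 106 CPM in pregnant gilts. PL139 stood far above the other 3, which were themselves above every cyclic gilt. In LE its log2 fold change was 2.87 (SE 0.76, adjusted p = 0.0427 by edgeR's quasi-likelihood test) and was not called, and without PL139 it was 1.91.

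In S, C3 was at 70.0, 95.2, 153 and 38.9 CPM in cyclic and at 669, 1480, 212 and 541 CPM in pregnant gilts. Each pregnant library was above each cyclic one, with PS41 the lowest. The log2 fold change of 3.03 (SE 0.60, adjusted p = 0.11 by edgeR's quasi-likelihood test) was not called, but it was called without PS41, by DESeq2 (adjusted p = 8.85e-06) and on the full table without the filter. In BV, C3 was at 52.5, 136, 65.3 and 144 CPM in cyclic and at 286, 517, 104 and 328 CPM in pregnant gilts, where PB41 lay among the cyclic libraries. The log2 fold change was 1.63 (SE 0.48, adjusted p = 0.0625 by edgeR's quasi-likelihood test), not called by that test. DESeq2 (adjusted p = 0.00684) and edgeR's robust likelihood ratio test (adjusted p = 0.000306) did call C3 in BV.

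CFB, the alternative pathway protease, was nearly absent. A library held 0 to 13 of its counts. In LE the cyclic libraries held 10 counts in all and the pregnant ones 32, a ratio of 2.94 per summed library total with a 95% exact interval of 1.41 to 6.70 that covers counting error only. In GE the counts were 13 and 23 (ratio 2.52, 1.23 to 5.42), in BV 2 and 7 (4.28, 0.815 to 42.2) and in S 6 and 6 (1.29, 0.344 to 4.81). On the full table edgeR's quasi-likelihood test gave adjusted p of 0.354, 0.506, 0.397 and 0.956 in LE, GE, BV and S, so no difference beyond the spread between gilts was detectable at this depth.

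The log2 fold changes of the 4 tested regulators were smaller in size than those of C1R, C1S, C4A and C3 in LE, GE and S, while in BV that of CFI was above that of C1R. CD46, the cofactor of CFI, was at 83.4 to 123 CPM in cyclic and 141 to 179 CPM in pregnant LE, and at 96.7 to 101 CPM in cyclic and 116 to 159 CPM in pregnant GE. The groups did not overlap in LE, GE or S, yet the log2 fold changes were only 0.54 in LE (SE 0.16, adjusted p = 0.0662 by edgeR's quasi-likelihood test), 0.47 in GE, 0.17 in BV and 0.37 in S, none called. CFI was at 14.5 to 72.6 CPM in cyclic and 16.6 to 37.7 CPM in pregnant LE, a log2 fold change of -0.55 with wide overlap. In GE its value of 0.70 rested on PG139, at 35.4 CPM against 9.52 and 8.10 CPM in the other two, and was -0.30 without it. In BV and S the values for CFI were 0.55 and 0.65.

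CD55, which dissociates the C3-cleaving enzymes, had libraries that differed widely within a group. In GE it was at 322, 44.1, 149 and 81.1 CPM in cyclic and 152, 66.9 and 51.9 CPM in pregnant gilts, and in LE, PL139 was at 210 CPM while the other 3 pregnant libraries were at 34.2 to 55.7 CPM. Groups overlapped in every compartment, and log2 fold changes of -0.03 (LE), -0.72 (GE), -0.29 (BV) and -0.67 (S) were not called. In LE the value ran from -1.01 to 0.24 when 1 library was left out.

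CD59 encodes the inhibitor of the membrane attack complex. In GE it was at 74.0, 474, 274 and 321 CPM in cyclic and at 97.8, 79.5 and 163 CPM in pregnant gilts. CG128 was the lowest of all, below the pregnant libraries, while the other 3 cyclic libraries were above them. The log2 fold change was -1.33 (SE 0.56, adjusted p = 0.205 by edgeR's quasi-likelihood test), not called, although edgeR's robust likelihood ratio test called CD59 lower (adjusted p = 0.0166). In LE it was at 30.9 to 42 CPM in cyclic and 48.2 to 57.0 CPM in pregnant gilts, without overlap, with a log2 fold change of 0.53 (SE 0.16, adjusted p = 0.0631 by edgeR's quasi-likelihood test). In BV and S the values were -0.11 and 0.12.

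Counted over libraries, the groups did not overlap for 6 (LE), 5 (GE), 1 (BV) and 2 (S) of the 8 members, in each case with pregnant above cyclic. Among all genes tested, pregnant libraries were all above the cyclic ones for 10.3%, 11%, 8.99% and 3.85% in these compartments.

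**Figure D2:**
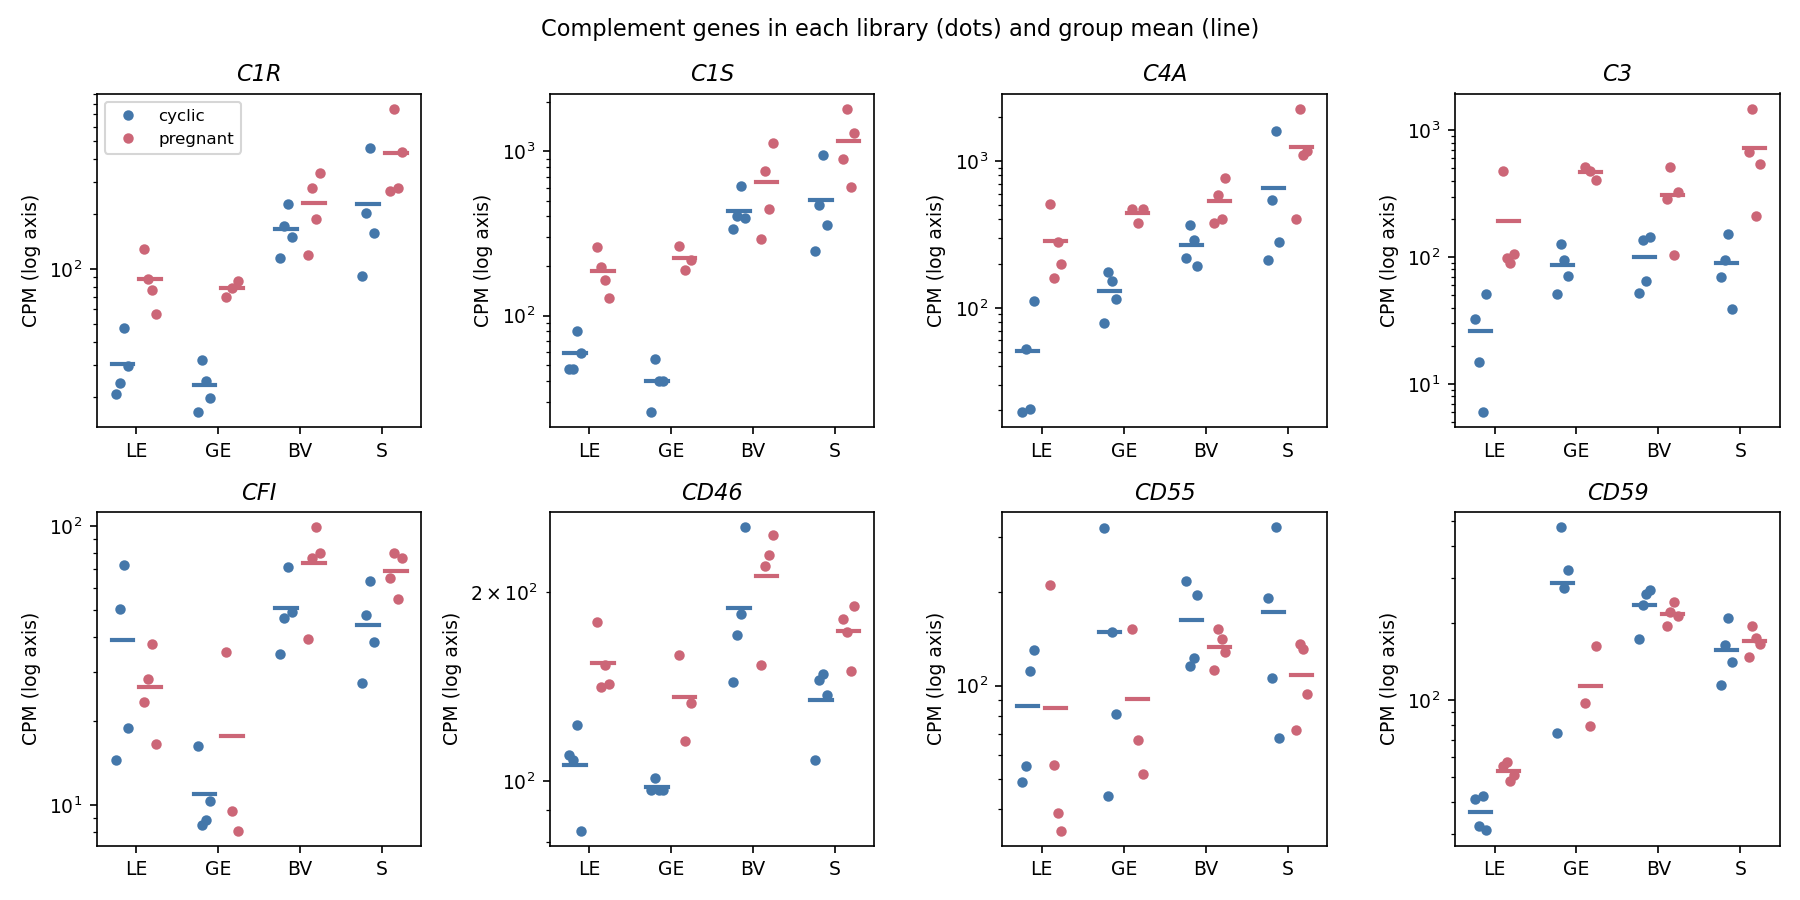
CPM on a log axis (y) of 8 complement genes in LE, GE, BV and S (x), 1 dot per library and a line at the mean, blue for cyclic and red for pregnant gilts. In GE the pregnant dots of C1R, C1S, C4A and C3 lie above all cyclic dots, while those of CD55 and CD59 lie among them.

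A joint fit of all 31 libraries over 9727 genes compared the pregnancy effects of the compartments with each other. No member was called (0 of 8, against 2.09% of all genes) at a false discovery rate of 1%. The smallest adjusted p by edgeR's quasi-likelihood test were 0.0511 for CD59 and 0.115 for C1S, the only members with an unadjusted p under 0.05. For CD59 the effect in LE exceeded that in GE by 1.85 on the log2 scale (SE 0.46, adjusted p = 0.0216 by edgeR's quasi-likelihood test), which passed a rate of 5% but not of 1% (1.09% of all genes did). For C1S the effect in GE exceeded that in BV by 1.94 (SE 0.57, adjusted p = 0.0755 by edgeR's quasi-likelihood test, where 0.0617% of all genes were called). The calls of C1R, C4A and C3 in GE alone are therefore not shown to be particular to GE.

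Levels between compartments and between genes are given as CPM of the joint fit per kb of exon. In cyclic gilts, C1S was at 179 ± 108 (SD, n = 4) in S, 158 ± 43.1 in BV, 19.9 ± 5.50 in LE and 13 ± 3.71 CPM per kb in GE. The order of C1R was the same, from 97.9 ± 68.9 in S to 9.07 ± 2.57 CPM per kb in GE. For both genes S and BV did not differ beyond their spread, nor did LE and GE, while BV was above LE (adjusted p = 1.58e-06 for C1S and 1.88e-05 for C1R by edgeR's quasi-likelihood test). The S level of C1S was 13.7-fold that of GE in cyclic and 6.41-fold that of LE, the lowest, in pregnant gilts.

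C4A ran from 129 ± 124 CPM per kb in S to 9.34 ± 7.66 in LE of cyclic gilts (13.7-fold), and from 245 ± 156 to 54.2 ± 28.8 in pregnant gilts (4.52-fold). Its neighbours in this order, S, BV, GE and LE, did not differ from each other at 1% in either group. C3 was at 15.9 ± 5.89 in GE, 20.5 ± 9.84 in BV and 17.9 ± 9.58 CPM per kb in S of cyclic gilts, with LE lowest at 4.97 ± 3.69. In pregnant gilts C3 was at 148 ± 111 in S, 88.0 ± 10.6 (n = 3) in GE, 63.5 ± 34.7 in BV and 37.1 ± 35.8 CPM per kb in LE, and no neighbours differed beyond their spread. GE of pregnant gilts held C4A at 81.1 ± 9.67 and C1S at 74.8 ± 12.7, close to C3, and C1R at 31.6 ± 2.78 CPM per kb.

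CD59 was the member with the clearest contrast between the epithelia. In cyclic gilts it was at 140 ± 80.6 in GE, 129 ± 24.2 in BV, 84.8 ± 20.9 in S and 18.8 ± 3.40 CPM per kb in LE. LE was below S, its neighbour in this order (adjusted p = 3.97e-06 by edgeR's quasi-likelihood test), and GE was 7.48-fold above LE. In pregnant gilts GE was at 57.2 ± 21.3 (n = 3) and LE at 27.5 ± 1.99 CPM per kb, a difference that was not called (adjusted p = 0.015 by edgeR's quasi-likelihood test), and BV was highest at 120 ± 11.

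CD46 varied least over compartments among the members whose level differed, from 53.2 ± 13.6 in BV to 24.7 ± 0.55 CPM per kb in GE of cyclic gilts, a 2.16-fold range. CFI was lowest in GE in both groups, at 1.96 ± 0.672 CPM per kb in cyclic gilts, below LE at 7.30 ± 5.20 (adjusted p = 0.002 by edgeR's quasi-likelihood test), and highest in BV at 10.1 ± 3.02. CD55 was at 9.02 ± 4.11 in LE to 19.0 ± 12.4 CPM per kb in S, with no difference between compartments called. CFB was under 1 CPM per kb in every group. Between pairs of compartments, 35.7% of all genes differed for LE and BV, 37.6% for LE and S and 24.7% for LE and GE in cyclic gilts, and 30% for LE and S and 21.3% for LE and GE in pregnant gilts. In all, the level differed between compartments for 6 of 8 members in cyclic gilts, against 59.9% of all genes, and for 6 of 8 in pregnant gilts, against 50% of all genes, so the members were not far from the background. In pregnant gilts the count was 3 when the gilt of PL39 or that of PL43 was left out.

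With the gilt as a block, C4A in pregnant gilts was no longer called for its level between compartments (adjusted p = 0.0164 against 0.0068 by edgeR's quasi-likelihood test), while the difference between LE and S in pregnant gilts was called for C3 (0.00985 against 0.0111) and CFI (0.00782 against 0.0104).

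**Figure D3:**
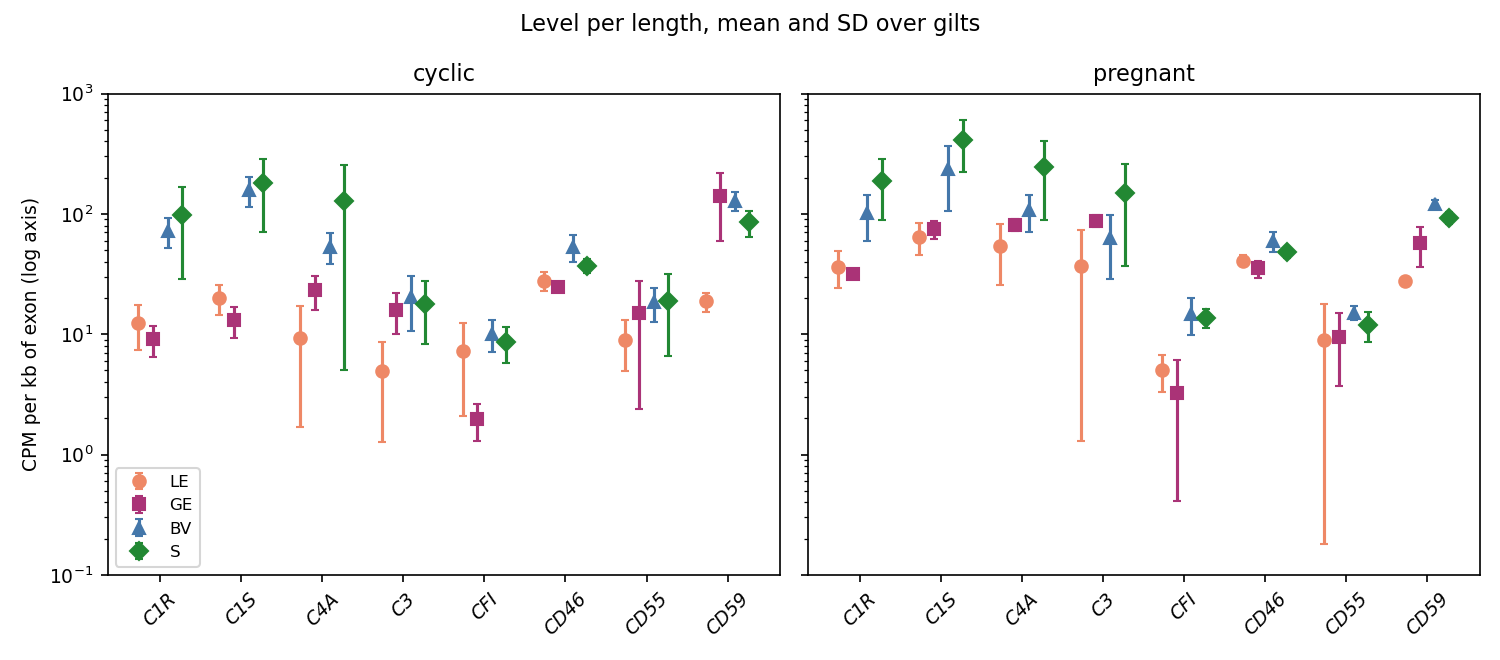
Level as CPM of the joint fit per kb of exon on a log axis (y) for 8 complement genes (x) in cyclic (left) and pregnant gilts (right), with the mean and SD over gilts for each compartment. S and BV lie above LE and GE for C1R and C1S, and CD59 is lowest in LE in both panels.

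Over the 31 libraries, the log2 CPM of C1R and C1S had a Pearson's r of 0.99, and of 0.94 after the mean of each group and compartment was taken away. The same pair of values was 0.84 and 0.60 for C1S with C4A, 0.81 and 0.56 for C4A with C3, and 0.64 and 0.45 for C1S with C3. Among the regulators, CFI and CD46 had r = 0.76 over all libraries and 0.59 within groups, while CD55 and CD59 had 0.29 and -0.41. These are descriptions, since libraries of a gilt and of a compartment share their source. Among 10154 other genes, SERPING1, which encodes the C1 inhibitor, had the pattern most like C1S (r = 0.98, 0.89 within groups) and C1R (r = 0.97, 0.88), followed by AGTR1 for C1S and FAM102B for C1R (r = 0.95 each). SERPING1 was also second for CD46 (r = 0.89), after PRCP (0.90). The most similar genes were NUPR1 (0.90) and NR1D2 (0.88) for C4A, CALCOCO1 (0.87) and MLLT6 (0.86) for C3, SLC39A8 and ERAP2 (0.90 each) for CFI, CPSF1 (0.75) and CC2D2A (0.73) for CD55, RAB12 and SUGCT (0.90 each) for CD59, and MARCH6 (0.73) and FOXO1 (0.72) for the sparse CFB.

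**Figure D4:**
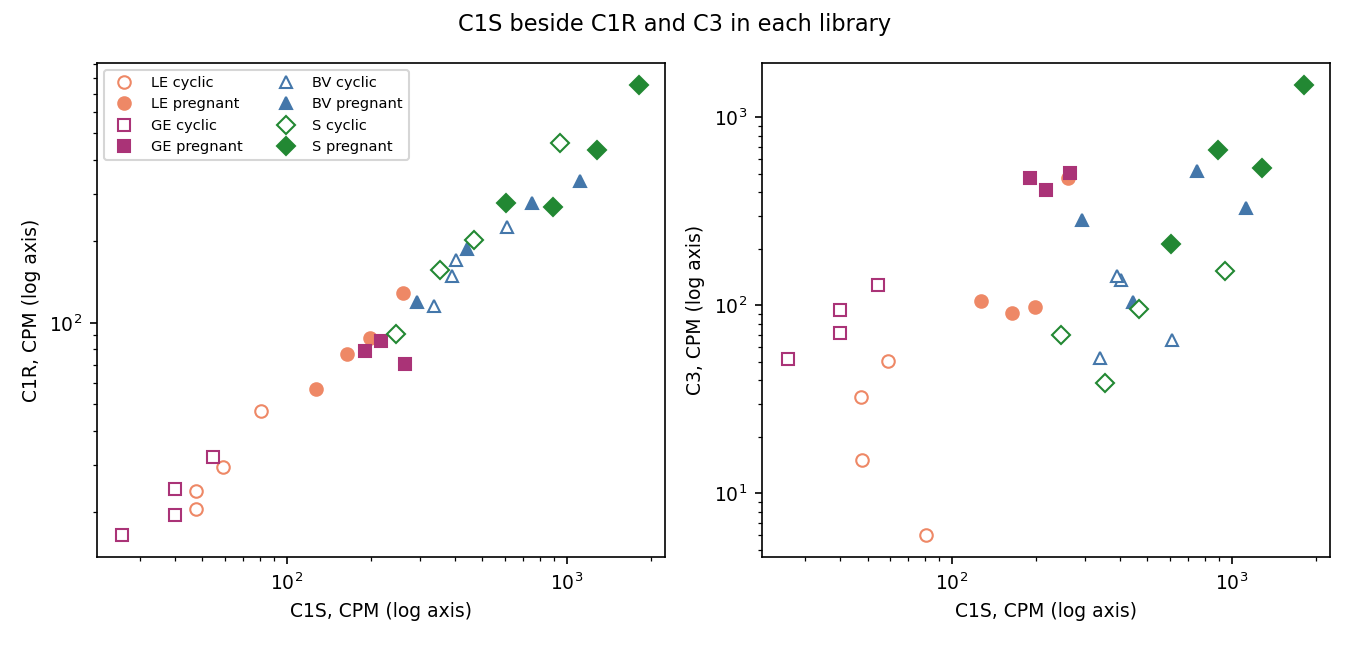
CPM of C1S (x, log axis) beside C1R (left) and C3 (right) (y, log axis) in each of 31 libraries, with open symbols for cyclic and filled symbols for pregnant gilts and 1 shape and colour per compartment. C1R and C1S fall on 1 line (r = 0.99 on the joint scale), while C3 in GE lies above the trend of the other compartments.

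Of 45 other complement genes listed, 42 had 1 matching gene, and 18 (LE), 18 (GE), 20 (BV) and 23 (S) were tested. In LE, 3 of 18 were upregulated, against 2.02% of all genes: CLU, clusterin, an inhibitor of the terminal complex (76.1 ± 34.6 CPM in cyclic, n = 4, and 717 ± 282 CPM in pregnant gilts, n = 4, 9.41-fold), PROS1, protein S, which circulates bound to C4b-binding protein (21.1 ± 8.29 and 137 ± 36.2 CPM, 6.46-fold), and SERPING1 (56.6 ± 23.7 and 197 ± 40.5 CPM, 3.48-fold). PROS1 was called in 8 of 8 fits without 1 library, CLU in 3 and SERPING1 in 1. In GE, 2 of 18 were upregulated, against 0.512% of all genes: C2, the other substrate of C1s (1.17 ± 0.353 and 12.5 ± 6.59 CPM, 10.5-fold), and SERPING1 (39.1 ± 14.4 and 153 ± 23.3 CPM, log2 fold change 1.97), each called in 2 of 7 fits without 1 library. C2 in GE held 20 counts in all over the cyclic libraries and 150 over the pregnant ones, so its fold change rests on few cyclic counts. It was not in the filtered table of LE. Whether it passed the filter in GE only through the pregnant libraries, where it was high, cannot be told. No gene of this list was called in BV or S by the quasi-likelihood test, against 1.86% and 0.293% of all genes. DESeq2 called 1 of 20 in BV and 2 of 23 in S, against 8.5% and 2.6% of all genes. At an unadjusted p under 0.05, 2 of 20 were higher and 1 lower in BV, against 14.4% and 14.1% of all genes, and 10 of 23 were higher in S, against 7.49%. None was downregulated in LE or GE either, but at an unadjusted p under 0.05 there was 1 of 18 lower in LE and 2 of 18 in GE, against 13% and 11.8% of all genes. DESeq2 called as many lower, against 4.72% and 2.91% of all genes. C1QBP, a protein that binds the globular heads of C1q, was one of the lower genes in both, at 42.4 ± 7.55 CPM in cyclic (n = 4) and 16.9 ± 4.78 CPM in pregnant GE (n = 3). The other in GE was CPN1, at 31 ± 20.9 and 4.53 ± 1.42 CPM. Its log2 fold change of -2.75 (SE 0.55, adjusted p = 0.0523 by edgeR's quasi-likelihood test) was larger in size than that of C1QBP, -1.31. For this list the median log2 fold change was 1.20 (LE), 1.21 (GE), 0.36 (BV) and 0.50 (S). The genes of the list with the highest CPM were CLU, CFD (121 ± 102 and 413 ± 135 CPM) and SERPING1 in LE, CLU (566 ± 270 and 1290 ± 580 CPM), SERPING1 and C1QBP in GE, SERPING1 (506 ± 99.8 and 678 ± 235 CPM), CD93 and CLU in BV, and SERPING1 (360 ± 161 and 745 ± 238 CPM), CFD and THBD in S.

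Since C1R and C1S were highest in S, their levels in the epithelia were set beside those of 8 fibroblast markers, each as a percentage of the level in S of the same gilt. The fibroblast markers in LE were at 10.2% to 19.2% of S in cyclic and 16.1% to 24.8% in pregnant gilts. C1S in LE was at 8.35% to 18.7% in cyclic and 9.50% to 27.6% in pregnant gilts, above the fibroblast markers of the same gilt in 1 of 4 and 2 of 4 gilts. C1R in LE was at 9.98% to 22% in cyclic and 11.2% to 45.2% in pregnant gilts. It was above the fibroblast markers in 2 of 4 gilts of each group. The part of fibroblast RNA in the results for C1S and C1R in LE was not tested. In GE the fibroblast markers were at 4.88% to 9.81% in cyclic and 7.02% to 8.84% in pregnant gilts, and C1S was at 3.85% to 10.6% and 9.78% to 27.7%, above the fibroblast markers in 2 of 4 cyclic and 3 of 3 pregnant gilts. C1R in GE was at 4.82% to 16.8% and 9.75% to 24.4%, above them in 3 of 4 cyclic and 3 of 3 pregnant gilts.

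C3 in GE was at 56.4% to 166% of S in cyclic and 30% to 70.9% in pregnant gilts, and C4A at 8.72% to 37.0% and 15.4% to 110%, above the fibroblast markers in every gilt. In LE this did not hold for every gilt. C3 in LE was at 3.83% to 119% and 6.34% to 66.5%, above the fibroblast markers in 3 of 4 gilts of each group. C4A in LE was at 1.25% to 36.2% and 6.7% to 119%, above them in 1 of 4 cyclic and 3 of 4 pregnant gilts. The part of fibroblast RNA in these LE values was not tested. The summed fibroblast level in GE was 3130 to 8010 CPM in cyclic and 3960 to 7100 CPM in pregnant gilts, with 0 of 8 markers called. Of these 8, 3 were higher in pregnant GE, among them DCN (means of 263 and 470 CPM) and PDGFRA (152 and 254 CPM). The others were lower, such as COL3A1 (2500 and 2090 CPM) and COL6A3 (101 and 54.5 CPM). Whether fibroblast RNA had a part in the GE values of C1R, C1S, C4A and C3 was not tested. The summed level of 11 leukocyte markers did separate the groups in GE, at 59.4 to 89.5 CPM in cyclic and 121 to 160 CPM in pregnant gilts. Of the 5 tested markers, 4 were higher in pregnant gilts, 0 were called, and none of the 11 was at 0 in a whole group. CD14 rose most in this sum, from a mean of 6.88 to 52 CPM. CD163 hardly moved (5.96 and 6.27 CPM), and LCP1, the highest marker in cyclic GE, was lower (38.4 and 27.4 CPM). In LE the leukocyte sum was 61.2 to 125 CPM and 108 to 179 CPM. The summed level of 8 endothelial markers was 15.5 to 44.4 CPM in cyclic and 17.7 to 185 CPM in pregnant GE, with 4 of the 4 tested markers higher in pregnant gilts and 0 called. In LE it was 125 to 639 CPM and 425 to 976 CPM, with 7 of 7 higher and 0 called. No endothelial marker was at 0 in a whole group. The part of leukocytes and endothelium in the results for C1R, C1S, C4A and C3 was not tested.

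**Figure D5:**
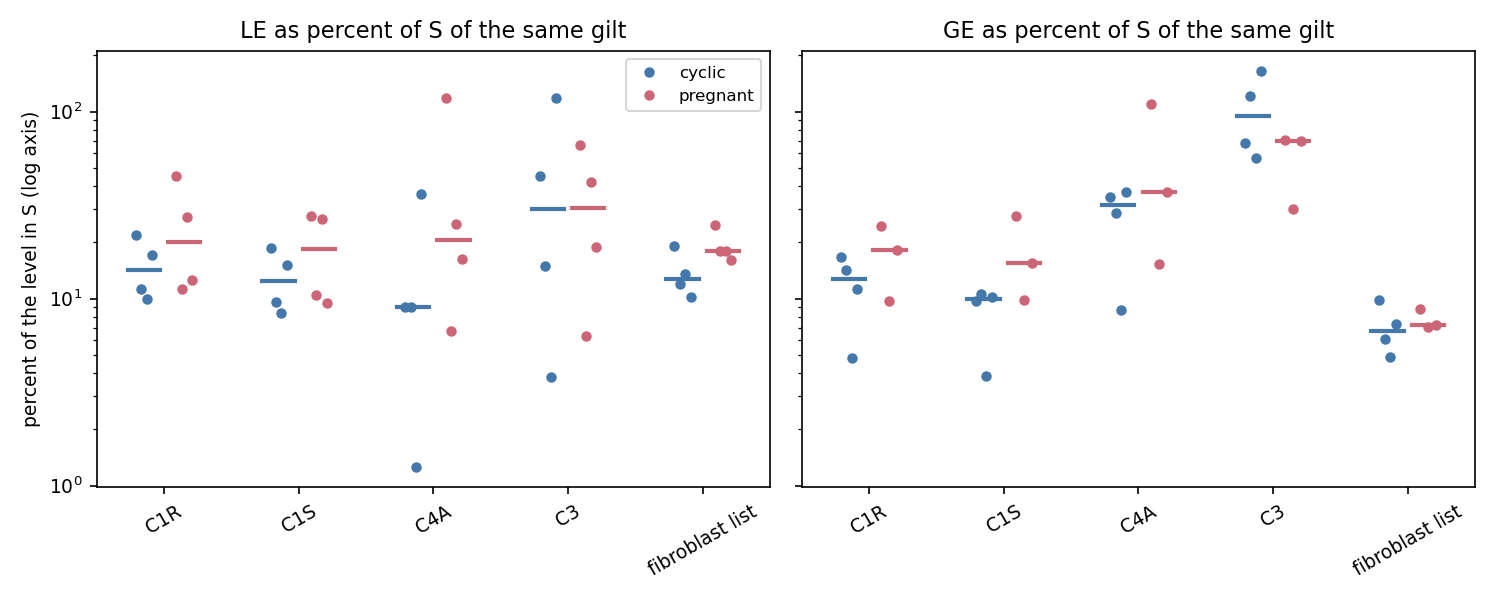
Level in LE (left) and GE (right) as a percentage of the level in S of the same gilt (y, log axis) for C1R, C1S, C4A, C3 and the sum of 8 fibroblast markers (x), 1 dot per gilt and a line at the median, blue for cyclic and red for pregnant gilts. In GE, C3 and C4A lie above the fibroblast markers of the same gilt in every gilt. In LE, C3 does so in 3 of 4 gilts of each group, and C4A in 1 of 4 cyclic and 3 of 4 pregnant gilts.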

How the data were processed

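The deposited files hold whole-number read counts per NCBI gene, 1 column per library. Per the paper's methods, the authors used Trim Galore on reads from the Ovation SoLo kit, Hisat2 for mapping against Sscrofa11.1, nudup against PCR duplicates and QuasR for counting, and filtered by a minimum CPM. Versions, that minimum and the use of strand in counting are not given in the sources used here. Removed duplicates make the counts closer to molecules, but low input limits the precision of rare transcripts.

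Counts of the filtered tables were normalized by TMM and tested with edgeR 4.0.16 (quasi-likelihood, R 4.3.3, limma 3.58.1) within each compartment, with Benjamini-Hochberg adjustment over all genes of the table, and in a joint fit over 31 libraries for differences between compartments. Alternatives were DESeq2 1.42.0, edgeR's robust likelihood ratio test, RLE scaling, the full table, removal of ribosomal RNA genes, a rate of 5%, leaving out each library and the gilt as a block. Per the paper's methods, the study itself tested with edgeR's robust GLM and ran DESeq2 beside it. Gilts are the replicates. Libraries of 1 gilt come from the same animal, and of 45 pairs of libraries of a gilt 34 had deviations from the group means that correlated above 0.1 (median 0.17, range -0.14 to 0.37). The quasi-likelihood tests were also run on simulated counts, with the same dispersion for every gene and no link between libraries of a gilt. Such a run checks the code and not the calls in these data. All 9 members were named, with other complement genes that were called or among the 3 highest in a compartment and the 2 genes most like each member among those with a mean of at least 10 CPM. CPN1 was named outside this rule, as the other lower gene in GE. The members, lists and tests were chosen with earlier results of these data known, and the comparison with fibroblast markers was added after the data were seen. No 2 libraries of a compartment were identical. The promoter window of C1S is not reported here.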

Additional observations from a re-analysis of the deposited data

Results flagged for a closer look

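Of 63 groups of 4 libraries, 4 held a library far from the others, where chance gives about 1 in 20 groups. In LE of pregnant gilts, PL139 was at 474 CPM for C3, where the next library was at 106 CPM, and at 210 CPM for CD55, where the next was at 55.7 CPM. Also in pregnant LE, PL41 was at 0.569 CPM for CFB, where the next was at 2.58 CPM. In GE of cyclic gilts, CG40 was at 101 CPM for CD46 and the nearest other at 96.8 CPM, a gap that is large only beside the close agreement of the remaining libraries.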

How the results depend on the processing

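The upregulation of C1S and C3 in GE was called under every alternative run, in the fits without 1 library by the limit on the unadjusted p. No member that was called changed its direction. More members passed with other tests. In LE, 3 were higher with DESeq2, 4 with the robust likelihood ratio test and 4 at a rate of 5%. In GE, the robust test called 1 member lower, CD59. In BV, DESeq2 and the robust test called 2 members each, and in S they called 1 and 2. Without the filter 1 member was called in S. Of the other complement genes in LE, 6, 8 and 6 were higher and 1, 1 and 1 lower with DESeq2, the robust test and a rate of 5%. In GE, 4 were higher with DESeq2 and 7 with the robust test, and 2, 2, 1 and 1 were lower with DESeq2, the robust test, no filter and a rate of 5%. In BV the robust test called 2 higher and DESeq2 1 lower, and in S DESeq2 called 2 and the robust test 4 higher. Over all genes DESeq2 called 1342, 791, 943 and 310 in LE, GE, BV and S and the robust test 1411, 793, 1216 and 377, against 398, 89, 206 and 35. The cause of these differences was not tested.

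Leaving out 1 library gave 0 to 1 members higher in LE, 2 to 4 in GE, 0 in BV and 0 to 1 in S, and 1 to 2, 0 to 2, 0 to 1 and 0 to 1 of the other complement genes. In GE, 0 to 1 of those were lower. Without 1 gilt, 0 to 1 members differed in their pregnancy effect between compartments, the 1 being CD59 without the gilt of CG128, and 3 to 7 in level in pregnant gilts, 3 without the gilt of PL39 or of PL43. The log2 fold change changed sign for CD55 in LE (-1.01 to 0.24), CFI in GE (-0.30 to 1.03), CLU in BV (-0.21 to 0.79) and PROS1 in BV (-0.16 to 0.10), and that of CD59 in S ran from 0 to 0.30, none of them called. With the replicate block of gilts, 0 members differed in their pregnancy effect, 6 in level in cyclic and 5 in pregnant gilts, and beyond the 3 values given beside the results no call on a member changed. Depth limits CFB, with 13 counts or fewer in each library.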
